A study of Arabidopsis thaliana with 14 samples.

Results

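Extensins are rod-like structural proteins of the plant cell wall. They consist of repeated runs of proline, many of which are hydroxylated and carry sugar chains, and tyrosines between the runs can be cross-linked so that the proteins form a network that stiffens the wall. Many members of the family are known for their expression in roots, and several in root hairs, where the wall of a fast-growing tip must be built and then fixed.

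The genes described here are the 8 Arabidopsis thaliana genes that the authors' deposited RNA table describes as a proline-rich extensin-like family protein, out of 1114 genes in that table. They were AT1G26240, AT1G26250, EXT6 (AT2G24980), AT3G28550, AT3G54580, AT4G08410, EXT12 (AT4G13390) and EXT10 (AT5G06640). The plants were whole seedlings of the C24 ecotype at 10 days, raised on MS plates with sucrose and left untreated. A fen1 mutant was compared with a transgenic wild type, TWT. FEN1 is flap endonuclease 1, an enzyme of DNA replication and repair. The labels name neither the transgene nor the kind of mutation, and they do not say whether fen1 carries the same transgene. Each genotype had 2 RNA libraries, and each of 3 histone marks had 1 chromatin immunoprecipitation (ChIP) library per genotype, of which the TWT peak lists were used here.

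The table gives 1 level per gene and genotype, taken to be FPKM (fragments scaled by length of transcript and by size of library), with a log2 change of fen1 over TWT and a q-value from the authors' test. Depth per library and levels per library are unknown here, so no SD can be given, and n is 1 combined value per genotype. The change divided by the authors' test statistic is given as an implied error. It is a standard error only if the statistic is the change over its standard error, which the sources used here do not state. Its median was 0.24 log2 units over the listed genes and 0.22 over the 8 extensin-like genes. FEN1 itself (AT5G26680) stood at 14.5 FPKM in TWT and 22.7 FPKM in fen1 (by the authors' deposited table, log2 0.65, q = 0.00462), and a level of its transcript does not check a mutation of unknown kind.

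The table lists only genes that passed the authors' test at q under 0.05, which were 5.53% of the 20132 genes that its p and q values imply were tested. All 8 extensin-like genes passed because the list was drawn from that table, so the number called is no result. Their directions are: 6 were higher in fen1 and 2 were lower. Over all tested genes 3.40% were called higher and 2.14% lower, so that 61.4% of the listed genes were higher. The median log2 change of the 8 genes was 1.00, beside 0.62 over all listed genes with a defined change.

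**Figure D1:**
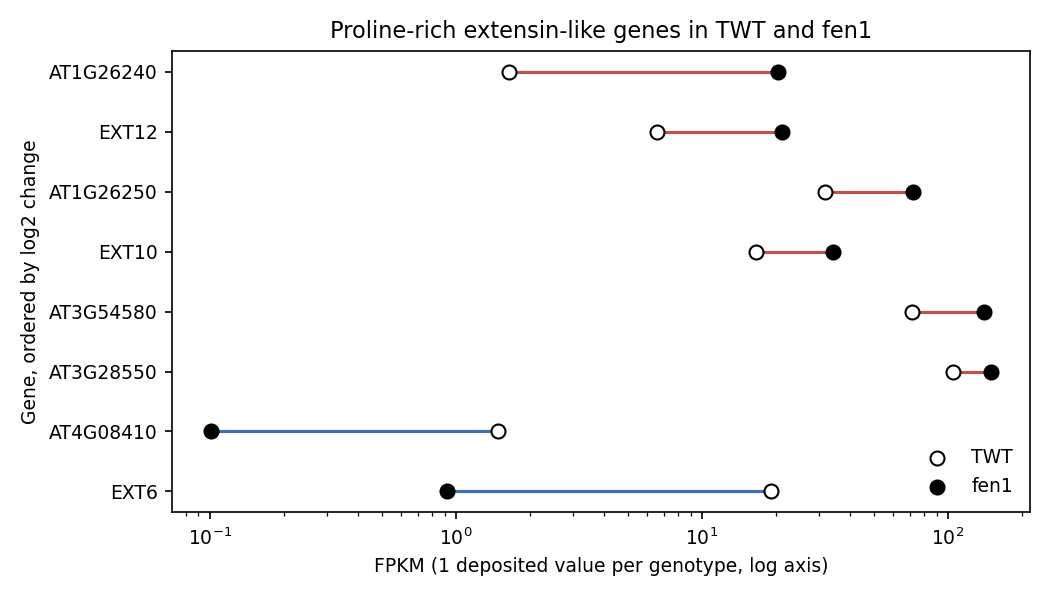
Levels of the 8 genes in TWT (open circles) and fen1 (filled circles) in FPKM on a log axis, 1 deposited value per genotype with no error, joined by a red line where fen1 is higher and a blue line where it is lower. The 6 genes that rose reach 20.4 to 149 FPKM in fen1, while EXT6 and AT4G08410 end below 1 FPKM.

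The most abundant member was AT3G28550, on chromosome 3 (10700707 to 10703929, minus strand, TAIR10). It rose the least, from 105 FPKM in TWT to 149 FPKM in fen1 (by the authors' deposited table, log2 0.51, implied error 0.20, q = 0.00462). Its closest relative in the table's annotation, AT3G54580, lies on the same chromosome (20200688 to 20203782, minus strand). That gene rose from 71.8 to 139.7 FPKM (by the authors' deposited table, log2 0.96, implied error 0.20, q = 0.00173). These are the longest of the 8 genes, with bodies of 3223 and 3095 bp, and each is annotated as the best protein match of the other. In TWT they made up 41.4% and 28.3% of the summed FPKM of the 8 genes, and in fen1 34.1% and 31.9%.

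AT1G26240 (chromosome 1, 9078140 to 9079576, minus strand) showed the largest rise of the group. It was among the lowest members in TWT at 1.64 FPKM and reached 20.4 FPKM in fen1 (by the authors' deposited table, log2 3.64, implied error 0.34, q = 0.00173), a 12.4-fold difference. By log2 change it was number 11 of the 679 higher genes with a defined change. Its neighbour AT1G26250 (chromosome 1, 9083838 to 9085464, plus strand) rose from 31.6 to 72.4 FPKM (by the authors' deposited table, log2 1.20, implied error 0.20, q = 0.00173). The bodies of the pair are 4261 bp apart and point away from each other, and in the reference table no annotated gene lies between them. Both are annotated with the same best match, AT4G08370. Their log2 changes differed by 2.44, where the implied errors combine to 0.40; that difference was not tested.

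EXT12 (chromosome 4, 7783818 to 7785326, plus strand) rose from 6.59 to 21.1 FPKM (by the authors' deposited table, log2 1.68, implied error 0.24, q = 0.00173). EXT10 (chromosome 5, 2039859 to 2041928, minus strand) rose from 16.7 to 34.1 FPKM (by the authors' deposited table, log2 1.03, implied error 0.21, q = 0.00173). Both are numbered extensins, and EXT10 is annotated as the best match of EXT12. Of the 6 genes that rose, 4 at least doubled, as did 320 of the 679 higher listed genes with a defined change. Over all tested genes 1.59% were called and at least 2-fold higher by a defined change, which leaves out called genes at 0 in TWT.

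EXT6 (chromosome 2, 10622453 to 10624132, plus strand) went the other way. It was a mid-level member in TWT at 19.1 FPKM and fell to 0.92 FPKM in fen1 (by the authors' deposited table, log2 −4.37, implied error 0.39, q = 0.00173), which is 20.7-fold lower. This was number 4 of the 425 lower genes with a defined change. AT4G08410 (chromosome 4, 5339086 to 5341209, minus strand) fell from 1.49 to 0.10 FPKM (by the authors' deposited table, log2 −3.88, implied error 0.99, q = 0.0425). Its level was the lowest of the 8 in both genotypes, its implied error was the widest, and its q was close to the threshold. At a q under 0.01, 7 of the 8 genes passed and AT4G08410 did not; over all tested genes 3.71% passed that limit, and the list was drawn on the same test. Both genes fell at least 2-fold, as did 127 of the 425 lower listed genes with a defined change. Over all tested genes 0.631% were called and at least 2-fold lower by a defined change, which leaves out called genes at 0 in fen1.

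**Figure D2:**
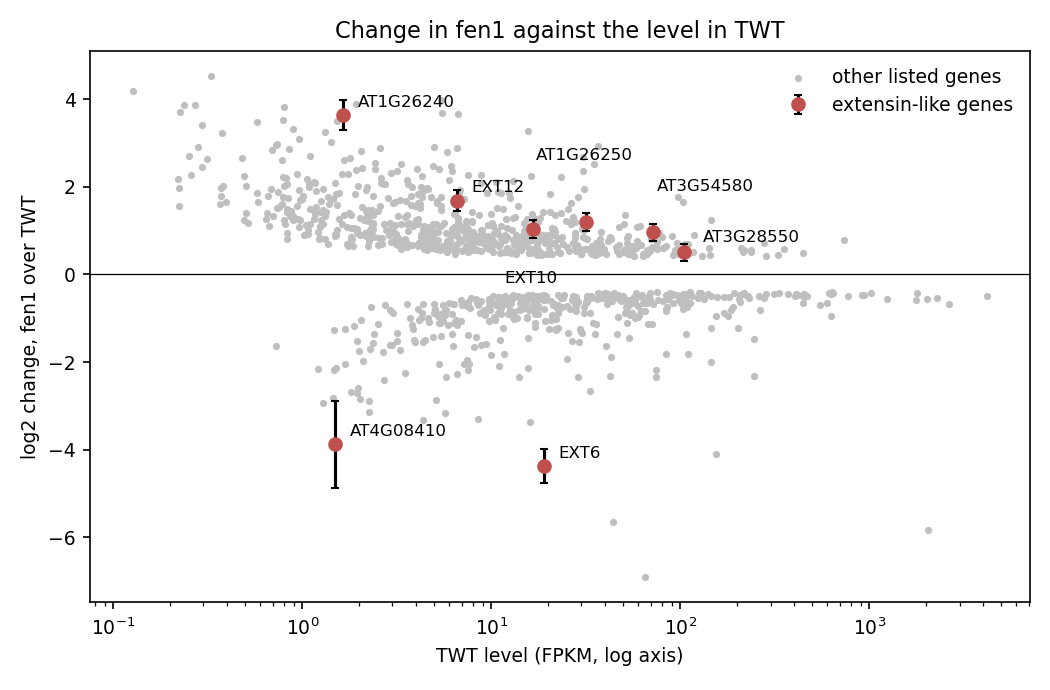
Log2 change of fen1 over TWT against the TWT level in FPKM (log axis) for the listed genes above 0 in both genotypes, grey for other genes and red for the 8 extensin-like genes, whose bars are the implied error. The genes that rose run from AT1G26240 at 3.64 down to AT3G28550 at 0.51, and EXT6 and AT4G08410 lie at −4.37 and −3.88.

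In TWT the levels ran, from high to low, through AT3G28550, AT3G54580, AT1G26250, EXT6, EXT10, EXT12, AT1G26240 and AT4G08410, and spanned 70.6-fold by the authors' deposited table. No spread between libraries was used, so it is not known which neighbours in this order differ beyond it; EXT6 and EXT10, at 19.1 and 16.7 FPKM, were close. In fen1 the order of the 6 genes that rose was AT3G28550, AT3G54580, AT1G26250, EXT10, EXT12 and AT1G26240, the same as in TWT. EXT6 dropped from rank 388 to rank 1075 of the 1114 listed genes by FPKM. Among the 6 genes that rose, a lower TWT level went with a larger log2 change (Spearman's rho −0.94, n = 6 genes). Over all higher listed genes rho was −0.59. The TWT level is also the denominator of the change, and the low genes in the table are those whose change passed the test, so these values are descriptions.

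Summed over the 8 genes, FPKM went from 254 in TWT to 438 in fen1 by the authors' deposited table, a ratio of 1.73. The 6 genes that rose went from 233 to 437 FPKM and the 2 that fell from 20.6 to 1.02 FPKM. EXT6 alone went from 7.51% of the sum to 0.21%, while AT1G26240 went from 0.65% to 4.65%. In whole seedlings, fewer cells of a type and less RNA per cell cannot be told apart.

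All 8 genes are annotated in the deposited table with the extensin-like repeat (InterPro IPR006706), a feature that the choice of genes did not use. Of the listed genes, 10 carry that annotation. The others are HRGP1 (AT3G54590), which encodes a hydroxyproline-rich glycoprotein, and EXT13 (AT5G35190), whose description differs by a lower-case letter. HRGP1 rose from 50.4 to 112.8 FPKM (log2 1.16, implied error 0.20, q = 0.00173) and EXT13 from 16.6 to 33.3 FPKM (log2 1.00, implied error 0.23, q = 0.00173) by the authors' deposited table. Of the 10 genes with the repeat, 8 were thus higher and 2 lower. HRGP1, named after its values were seen, lies 2377 bp from AT3G54580 and points away from it. These divergent neighbours differed by 0.20 in log2 change, within their combined implied error of 0.28.

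The annotated relationships cut across the directions. The best match of EXT6, which fell, is EXT13, which rose. EXT10 rose, and its best match AT4G08410 fell. Of the 8 genes, 5 have a best match in the table, which changed in the same direction in 3 cases and in the opposite direction in 2. AT3G28550 and AT3G54580 are each the best match of the other, so that pair is counted from both sides among the 3. The best matches of the other 3 genes, AT4G08370 and AT4G08400, are named in the table as members of the same family and were not listed as changed. Genes outside the table have no value here, and a gene may be absent because it was too lowly expressed to be tested. No source used here states how reads matching several of these repetitive genes were shared out, and the levels of all 8 genes are uncertain to that extent. In the reference table AT1G26255 overlaps AT1G26250 and AT5G06645 overlaps EXT10. Neither was listed, and strand handling is not stated. The submitters' notes name the TAIR10 build, an assembly of the Columbia accession, whereas these plants were C24; differences between the accessions in these repeats were not tested.

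The deposited descriptions give organs of expression for 5 of the 8 genes, and root is among them for all 5: AT1G26240, EXT6, AT3G54580, AT4G08410 and EXT10. For AT1G26240 and EXT6, root is the only organ given, and these genes had the largest rise and the largest fall of the 8.

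**Figure D3:**
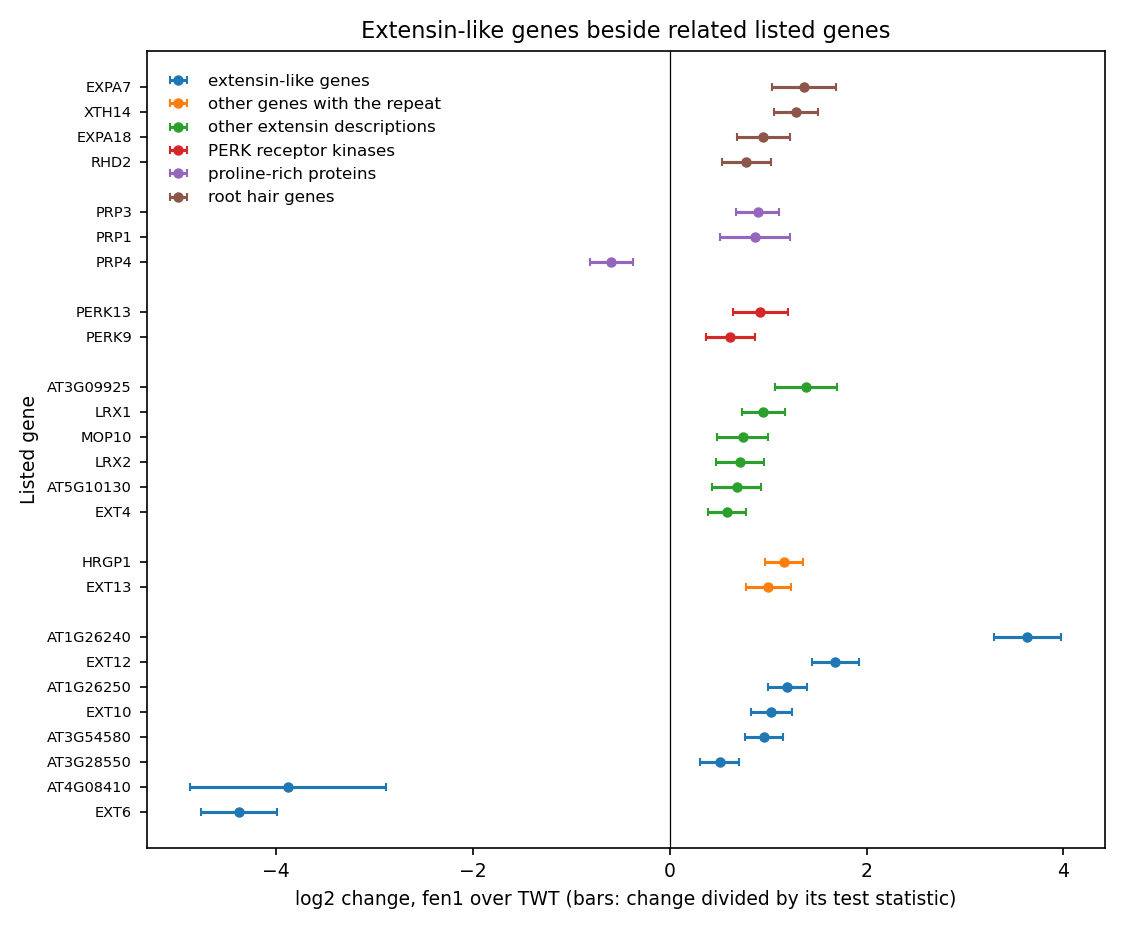
Log2 change of fen1 over TWT for the 8 extensin-like genes and for listed genes of related groups, each point 1 gene and each bar its implied error. The related genes lie between 0.58 and 1.38 except PRP4 at −0.59, inside the range of the 8 genes, which runs from −4.37 to 3.64.

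Other listed genes with the word extensin in their short description, EXT13 among them, all moved one way. Of these, 7 of 7 were higher, beside 61.4% of all listed genes, with a median log2 change of 0.74. EXT4, an extensin annotated as responding to wounding, was the most abundant, at 353 FPKM in TWT and 530.0 FPKM in fen1 (by the authors' deposited table, log2 0.58, q = 0.00173). AT3G09925, of the pollen Ole e 1 and extensin family, rose from 10.0 to 26.1 FPKM (by the authors' deposited table, log2 1.38, q = 0.00173). LRX1, a chimeric protein with leucine-rich repeats and an extensin part that shapes root hairs, rose from 8.88 to 17.1 FPKM (by the authors' deposited table, log2 0.95, q = 0.00173). LRX2, its paralogue, rose from 4.15 to 6.81 FPKM (by the authors' deposited table, log2 0.71, q = 0.00462). The reference table has 7 numbered extensin symbols, of which 4 were higher, 1 was lower, and EXT3 and the pseudogene EXT11 were not listed. The shares over all tested genes were 3.40% higher and 2.14% lower. EXT6, EXT10 and EXT12 were chosen from the listed genes, so their part of this count is no result.

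Among the proline-rich extensin-like receptor kinases, which carry an extensin-like outer part on a kinase, 2 of 15 were higher, none was lower and 13 were not listed, where 3.40% of all tested genes were called higher and 2.14% lower. PERK13, also named a root hair specific gene, had a log2 change of 0.92 (q = 0.00173) and PERK9 of 0.62 (q = 0.00943) by the authors' deposited table. Of the 4 proline-rich proteins PRP1 to PRP4, 2 were higher and 1 lower, beside the same shares. PRP3 rose from 20.0 to 37.0 FPKM (q = 0.00173) and PRP1, specific to the root, from 2.40 to 4.37 FPKM (q = 0.0270) by the authors' deposited table. PRP4, whose transcripts are most abundant in aerial organs, fell from 1762 to 1168 FPKM (by the authors' deposited table, log2 −0.59, q = 0.00322). None of 7 genes that hydroxylate or glycosylate extensins (P4H2, P4H5, P4H13, RRA1, RRA2, RRA3 and XEG113) was listed; with 5.53% of all tested genes called, no call among 7 genes is close to the background.

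Of 17 genes of root hairs or of root epidermal cell fate, 4 were higher, none was lower and 13 were not listed. Over all tested genes 3.40% were called higher. The 17 include GL2 and WER, which act in the non-hair fate, so they are not all genes of hair cells. EXPA7 and EXPA18, expansins that loosen the wall of root hairs, had log2 changes of 1.36 and 0.95 (q = 0.00173 for both) by the authors' deposited table. XTH14, which cuts and rejoins xyloglucan, rose from 18.0 to 43.8 FPKM (log2 1.28, q = 0.00173) and RHD2, the NADPH oxidase of the hair tip, from 3.04 to 5.21 FPKM (log2 0.78, q = 0.00173) by the authors' deposited table. The regulators RHD6, RSL1, RSL2, RSL4, LRL3, GL2, CPC and WER were not listed. Of the 8 genes used as root hair markers, EXPA7, EXPA18, PRP3 and LRX1 were higher. RHD6, RSL4, COBL9 and ADF8 were not listed and have no value here. All of these markers except PRP3 and LRX1, which are described above, are also among the 17 genes, so this is not a separate count. Of 3 shoot markers, PSAD-2 fell from 609 to 454 FPKM (by the authors' deposited table, log2 −0.42, q = 0.0425) and the others were not listed. Over all tested genes 2.14% were called lower, and the q of PSAD-2 was close to the threshold. Among the 5 extensin-like genes annotated to the root, AT1G26240, AT3G54580 and EXT10 rose, while EXT6 and AT4G08410 fell. The part of the amount of root hair or shoot tissue in the extensin-like changes was not tested.

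**Figure D4:**
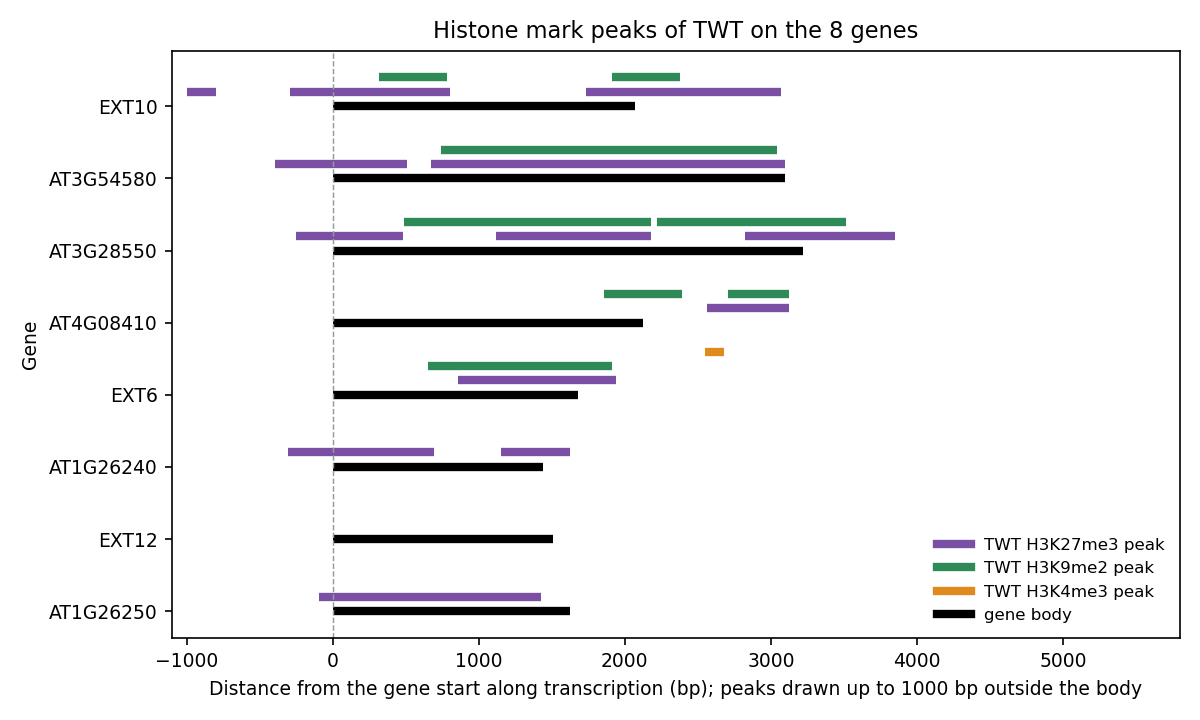
TWT peaks of H3K27me3 (purple), H3K9me2 (green) and H3K4me3 (orange) on the 8 genes, with the gene body in black, plotted by distance in bp from the gene start along transcription and drawn up to 1000 bp outside the body. H3K9me2 peaks lie on 5 bodies and cross no gene start, H3K27me3 peaks lie on 6 and cross the start of 5, and the 1 H3K4me3 peak lies downstream of EXT6.

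The histone marks of TWT were not used in the rule that chose the genes, which was set with earlier results of these data known. H3K4me3 is placed at the starts of active genes, H3K27me3 by the Polycomb system on silent genes, and H3K9me2 mostly on transposons and heterochromatin. A gene counted as marked if at least 1 bp of its body lay under a peak. None of the 8 genes carried an H3K4me3 peak, beside 53.8% of all listed genes. H3K27me3 was on 6 of 8, beside 37.0%, and H3K9me2 on 5 of 8, beside 2.78%. H3K27me3 and H3K9me2 together were on 4 of 8, beside 2.24%. With peaks above the median score of their list alone, H3K9me2 was on 2 of 8 genes, beside 0.449% of listed genes, and H3K27me3 on 3 of 8, beside 23.2%. Each list comes from 1 library, so these counts have no replicate check and were not tested. They also depend on how ChIP reads matching several of these repetitive genes were placed, which the sources used here do not state. The H3 and input libraries of TWT were not analysed here. A gene with no peak was below the authors' threshold, which is not the same as having no mark.

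H3K9me2 overlapped EXT6, AT3G28550, AT3G54580, AT4G08410 and EXT10. These include both genes that fell and 3 of the 6 that rose, so marked genes changed in both directions. With only 2 lower genes, a link between mark and direction was not tested. Among all listed genes it was on 2.92% of the higher and 2.56% of the lower ones. The peaks covered 83.4% of the body of AT3G28550, 74.2% of AT3G54580, 61.2% of EXT6, 30.1% of EXT10 and 12.7% of AT4G08410. At least 50% of the body was covered in 3 of the 8 genes, beside 0.987% of the listed genes. None of these peaks reached the gene start, and among the other 26 listed genes with H3K9me2 a peak did so in 4 (15.4%). The peak of EXT6 began 652 bp from the start, the first of AT3G28550 488 bp, that of AT3G54580 743 bp and the first of EXT10 317 bp from it. On AT4G08410 a peak of 539 bp covered the 3′ end of the body, and a larger one of 3246 bp lay beyond it, from 2707 bp downstream of the gene start.

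By the authors' peak score, whose lowest value in the H3K9me2 list was 50.01 and whose median was 235, these peaks ranged widely. AT3G54580 had a peak of 516 and AT3G28550 one of 476, higher than 71.3% and 69.5% of that list. The peak of EXT6 scored 157, that on the body of AT4G08410 109, and those of EXT10 52.3 and 69.4, the former near the floor of the list. HRGP1 carried H3K9me2 as well, over its whole body, whereas EXT13 had none. Of the 10 genes with the extensin-like repeat 6 were thus marked, and none of the 7 other genes described with the word extensin was. Of 28 descriptions shared by at least 5 listed genes, 2 had any gene with an H3K9me2 peak: the extensin-like genes with 5, and a late embryogenesis abundant family with 1.

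H3K27me3 overlapped AT1G26240, AT1G26250, EXT6, AT3G28550, AT3G54580 and EXT10. The peaks crossed the gene start in 5 of these 6 genes, EXT6 being the exception, where 62.6% of the other listed genes with this mark had a peak over the start. They covered 94.6% of the body of AT3G54580, 87.5% of AT1G26250, 68.0% of AT1G26240, 60.3% of AT3G28550, 55.0% of EXT10 and 49.1% of EXT6. At least 50% of the body was thus covered in 5 of the 8 genes, beside 31.0% of the listed genes. The highest score on a body was 473 on AT1G26250, above 91.0% of that list, followed by 343 on EXT10 and 157 on AT3G54580. The other top scores were 67.6 on AT3G28550, 64.8 on AT1G26240 and 61.2 on EXT6, where the median of the list was 125. On AT3G54580, AT3G28550 and EXT10 the peak over the gene start was another one, with a lower score. The start peaks of AT3G54580, AT3G28550 and AT1G26240 scored above only 8.2%, 8.5% and 16.4% of that list. Those of EXT10 and AT1G26250 scored above 66.4% and 91.0% of it. On AT3G54580 and EXT10 all of the body under H3K9me2 was also under H3K27me3, on EXT6 80.3% of it and on AT3G28550 54.3%. On AT3G54580 the H3K9me2 peak ran from 743 to 3039 bp from the gene start and an H3K27me3 peak from 674 to 3096 bp. What shared reads, or differences between C24 and Columbia in these repeats, add to such overlaps was not tested. Whether both marks sat on the same molecules cannot be told from bulk seedlings. EXT12 carried no peak of any of the 3 marks on its body.

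The levels in TWT RNA were set beside these marks. Of the 205 listed genes with at least 50 FPKM in TWT, 161 (78.5%) had an H3K4me3 peak and 6 an H3K9me2 peak. AT3G28550 and AT3G54580 were among the 6, at 105 and 71.8 FPKM by the authors' deposited table, and their nearest H3K4me3 peaks lay 4734 and 6998 bp away. HRGP1 was another of them. The H3K4me3 peak closest to any of the 8 genes lay 870 bp downstream of EXT6. Whether the RNA and the marks came from the same cells was not tested. The marks in fen1 were not analysed here.

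The listed genes whose pair of levels was closest to the median of the 8, by distance on the log2(FPKM + 1) scale over the 2 genotypes, were a chitinase family gene (AT1G02360), a pfkB-like carbohydrate kinase gene (AT5G51830) and a peroxidase gene (AT4G33420). Their distances were 0.04, 0.06 and 0.07. With only 2 values per gene, such likeness is weak, and none of the 8 genes lay within these distances of their own median.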

How the data were processed

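The authors' deposited RNA table gives 1 FPKM value per genotype, read so from its Cuffdiff layout since the header does not name the unit, with log2 changes, p-values and q-values of the authors' own test. The deposited log2 change equals the ratio of the FPKM columns within 1.17e-05. TopHat2 2.1.1, Cuffdiff 2.1.1, Bowtie 0.12.9, SAMtools and the TAIR10 build appear in the submitters' processing notes without a stated role. The deposited peak lists give a position and the authors' peak score, and peak names point to MACS. Depth per library is unknown. Nothing in the labels states that the 2 RNA libraries per genotype were grown separately, and p-values may measure technical spread alone.

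Genes were chosen by their exact short description. The members, lists and marks were chosen with earlier results of these data known. No test was added, as no values per library were used. The number of genes tested was taken from q times rank over p. Interval overlap was computed with Python 3.11.15, pandas 2.3.3 and numpy 2.4.6, was checked on simulated intervals, and used 1-based positions of the deposited files. All 8 genes matched the reference table (TAIR10.1), which served for names and gene order only. Of 76 list entries 58 were kept, because the reference table does not give the other symbols; the list of cross-linking peroxidases was lost for that reason. The rule names all 8 genes, up to 4 listed genes per list by q and then size of change, FEN1 and the 3 genes nearest in pattern. Planned descriptions of proteins and promoters were not made, and sequences were not used here.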

Additional observations from a re-analysis of the deposited data

How the results depend on the processing

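Of 38 values recomputed under other settings, 29 were labelled as close to those reported and 9 as moved. The label is loose: 4 genes higher by at least 2-fold, in place of 6, were labelled as close. Counts have no sign, and adding the same constant to both levels cannot reverse a log2 change, so the lack of reversals is no result. With every description that holds the word extensin, 13 genes were higher and 2 lower. At q under 0.01, 1 gene was lower in place of 2, since AT4G08410 dropped out, and the 6 higher genes remained. H3K9me2 was on 3 genes when at least 50% of the body had to be covered, on 2 when the peak score had to exceed the median of its list, and on 5 with 1000 bp added on each side. With that score limit H3K27me3 was on 3 genes. With the same 1000 bp, H3K4me3 was on 1 gene. With log2(FPKM + 1), AT1G26240 stood at 3.02, EXT6 at −3.38 and AT4G08410 at −1.18, beyond their implied errors. Each of these 3 genes had a level of 1.64 FPKM or less in at least 1 genotype, where adding 1 shrinks a log2 ratio most. With log2(FPKM + 0.1) they stood at 3.56, −4.23 and −2.98, within their implied errors of the reported changes. No paired analysis was possible because the table carries no values per library, and leaving out a library was not run for that reason. Depth per library is unknown, so what it limits cannot be stated.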
